A study of Mus musculus with 94 samples.

Results

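Loss of RAD21 and loss of WAPL were compared by RNA-seq at day 10 of differentiation, in 8 of the 94 samples of the series. The 8 libraries were chosen by clone, treatment and harvest day, and all genes counted in both deposited tables were used: 14875 genes, of 15363 in the RAD21 table and 14997 in the WAPL table. Of these, 14236 passed a filter on low counts and were tested. All cells were mouse embryonic stem cells of a CAST/Ei x 129/Sv/Jae cross, labelled as a Tsix-stop line, in which the gene for 1 cohesin factor carried an FKBP degron tag. They were grown on irradiated embryonic fibroblast feeders before differentiation, then as embryoid bodies without LIF, and were harvested at day 10. RAD21-FKBP(degron) clones C4 and G9 had received dTAG-13 at 500 nM for 8 h, or DMSO for 8 h, with 1 library per clone and treatment. WAPL-FKBP(degron) clone H7 had received dTAG-13 at 500 nM for 3 days (day 7 to day 10), or DMSO for 3 days, with 2 replicates of each. The WAPL line is therefore a single clone. The degraded protein, the length of treatment and the clone cannot be told apart in any difference between the sets. An effect of dTAG-13 on cells without a degron was not tested.

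Cohesin is a ring complex that extrudes chromatin loops and holds sister chromatids together, and RAD21 is the subunit that closes the ring. WAPL opens the ring and releases cohesin from chromatin, so loss of RAD21 takes cohesin away while loss of WAPL leaves it on chromatin for longer, with longer loops. dTAG-13 is a small molecule that links FKBP-tagged proteins to an E3 ubiquitin ligase, which sends them to the proteasome. The comparison asks which genes responded in opposite directions to too little and to too stable cohesin, and which responded alike.

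Total counts ranged from 13802076 to 33808921 in the RAD21 libraries and from 12076585 to 26956675 in the WAPL libraries, so that 3 counts in a library correspond to between 0.0887 and 0.248 CPM, that is, counts scaled to the total of the library. A response below is the log2 fold change of dTAG-13 over DMSO, given with its standard error, and where 2 responses are given for a gene the RAD21 one comes before the WAPL one. A gene is said to have risen or fallen where the adjusted p of edgeR's quasi-likelihood test was under 0.05 with Benjamini-Hochberg adjustment over all 14236 genes, and every adjusted p below is from that test. Because dTAG-13 removes protein, the RNA of a tagged gene does not check the loss. Wapl RNA stood at 148 ± 21.5 CPM with dTAG-13 and 154 ± 22.2 CPM with DMSO in the RAD21 clones (SD, n = 2 each), and at 734 ± 109 CPM with dTAG-13 and 736 ± 126 CPM with DMSO in the WAPL clone. Every library of the WAPL clone was above every library of the RAD21 clones, at both treatments. Rad21 RNA did not pass the test in either response (0.14 ± 0.06, adjusted p = 0.113, and -0.10 ± 0.06, adjusted p = 0.176), while their difference did (0.24 ± 0.08, adjusted p = 0.0407). Both responses were fitted within pairs, by clone for RAD21 and by replicate number for WAPL. The labels do not say that same-numbered WAPL libraries share a culture. Without the WAPL replicate block, in 1 fit of all 8 libraries, 5 genes passed in the RAD21 response and 0 in the WAPL response or the difference (771, 1711 and 839 at an unadjusted p under 0.05), so the calls below rest on the pairs. A separate fit of the RAD21 libraries, paired by clone, called 2478 genes.

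In the RAD21 response 1139 genes rose and 1090 fell, 8% and 7.66% of those tested, while in the WAPL response 2504 rose and 2544 fell, 17.6% and 17.9%, or 35.5% in all against 15.7% for RAD21. Large effects leaned one way in each set: 26 genes rose and 147 fell at least 2-fold after RAD21 loss, whereas 254 rose and 141 fell at least 2-fold after WAPL loss. The difference of the responses, RAD21 minus WAPL, passed its own test for 2843 genes, 20% of those tested, with 1380 higher (9.69%) and 1463 lower (10.3%). With library totals in place of scaling factors the RAD21 split became 763 risen and 1398 fallen genes and that of the difference 806 higher and 1804 lower, as the median RAD21 response over all genes moved to -0.04. Without the DMSO or the dTAG-13 library of clone G9 the RAD21 calls numbered 1236 or 1284. The WAPL calls numbered 2898 without the DMSO and 2955 without the dTAG-13 library of replicate 1, and 3179 without the dTAG-13 library of replicate 2, which also left 1883 genes past the difference. In each fit without 1 library, the set that lost it kept 1 whole pair, so the residual spread came from the pairs of the other degron alone. Counts from such day 10 fits, here and below, therefore do not measure how well calls repeat within that set. Across genes the responses were weakly correlated, with Pearson's r = 0.21 and Spearman's rho = 0.24 over 14236 genes, which are not independent replicates.

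Genes called in both responses mostly moved together. Of 1231 such genes, 951 had the same sign and 280 the opposite sign. All 280 passed the test of the difference, which is nearly given for 2 called responses of opposite sign in 1 fit. RAD21 down with WAPL up held 168 genes (1.18% of genes tested), RAD21 up with WAPL down 112 (0.787%), both up 527 (3.7%) and both down 424 (2.98%). Of the genes that rose after RAD21 loss, 46.3% also rose after WAPL loss and 9.83% fell. Of those that fell after RAD21 loss, 15.4% rose after WAPL loss and 38.9% fell. The 147 genes that fell at least 2-fold after RAD21 loss split into 32 that rose, 40 that fell and 75 that were not called after WAPL loss. DESeq2 on the same pairs found 37, 8, 136 and 104 genes in the 4 classes. The class RAD21 up with WAPL down held 48 to 73 genes without a library of either RAD21 clone or of WAPL replicate 2, and 51 with library totals. The class both up held 341 without the DMSO library of clone G9, and both down 246 or 259 without a library of that clone.

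**Figure D1:**
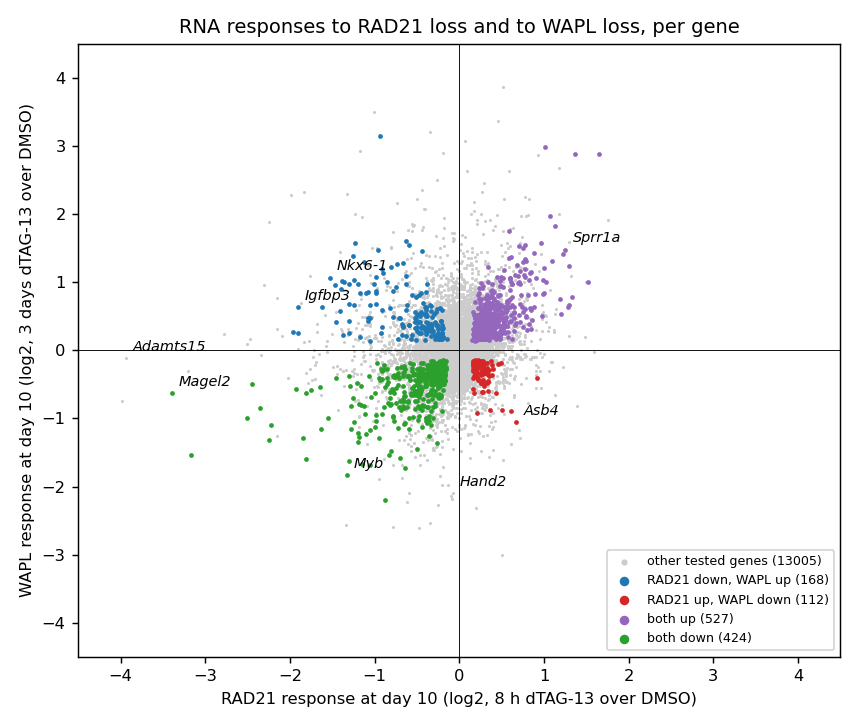
Response to RAD21 loss (horizontal axis, log2) against response to WAPL loss (vertical axis, log2) for each tested gene, coloured by class, with 2 of 14236 genes outside the plotted range. The 168 genes of the class RAD21 down with WAPL up reach further from the centre than the 112 genes of the reverse class.

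The first class, lower after RAD21 loss and higher after WAPL loss, had a median response of -0.48 for RAD21 and 0.42 for WAPL, and its leading genes by the smaller absolute response were of several kinds. Nkx6-1, a homeobox factor of ventral neural tube and pancreas, had 1.78 and 3.45 CPM with dTAG-13 in clones C4 and G9, against 5.49 and 9.38 CPM with DMSO. In the WAPL clone it had 10.8 and 7.05 CPM with dTAG-13, against 4.85 and 3.58 CPM with DMSO. The treated and control values did not overlap in either set, and the responses were -1.53 ± 0.18 and 1.07 ± 0.17 (difference -2.60 ± 0.24, adjusted p = 3.15e-07). Fat4, an atypical cadherin, gave -1.36 ± 0.17 and 1.00 ± 0.18, but its nascent RNA, measured by PRO-seq on other libraries of the RAD21 clones at day 7, rose (0.99, adjusted p = 0.00295). Slit2, a secreted axon guidance ligand, had 54.2 and 28.4 CPM with dTAG-13 in the RAD21 clones, against 87.1 and 54.1 CPM with DMSO, and 38.8 and 51.6 CPM with dTAG-13 in the WAPL clone, against 19.4 and 30 CPM with DMSO. The clones differed in level, so the RAD21 groups touched, yet each pair moved the same way (-0.79 ± 0.07 and 0.87 ± 0.08, difference -1.66 ± 0.10, adjusted p = 9.12e-10). Robo2, a receptor for Slit ligands, moved alike (-0.99 ± 0.24 and 0.85 ± 0.17), on few reads in treated RAD21 clones (1.66 and 1.1 CPM). Robo1, another such receptor, belonged to the reverse class (0.24 ± 0.05 and -0.22 ± 0.06), at 97.3 and 114 CPM in treated RAD21 clones.

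Other leading genes were Slc18a3, the vesicular acetylcholine transporter (-1.24 and 1.04), Adm, the vasoactive peptide adrenomedullin (-0.99 and 1.08), and Mical2, an actin-oxidising enzyme (-1.01 and 0.97). They were joined by the neurotrophin gene Bdnf (-1.30 and 0.97), the homeobox gene Dlx3 (-0.91 and 1.19) and the zinc finger gene Zfp503 (-0.90 and 1.14). Pappa, a protease that cleaves IGF-binding proteins, gave -1.10 and 0.85, and Lmo2, a transcriptional cofactor of blood and endothelium, gave -0.81 and 1.22. Slc18a3 and Adm lay at 1.04 and 0.735 CPM and 1.07 and 1.1 CPM in treated RAD21 clones, so their falls rest on few reads. In 167 of the 168 genes of the class both RAD21 clones moved down and both WAPL replicates moved up. Snai2, a factor of epithelial-mesenchymal transition, gave -1.26 and 1.38, the forkhead factor gene Foxd1 gave -1.40 and 0.90, and the Wnt ligand gene Wnt7a gave -1.06 and 0.67.

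**Figure D2:**
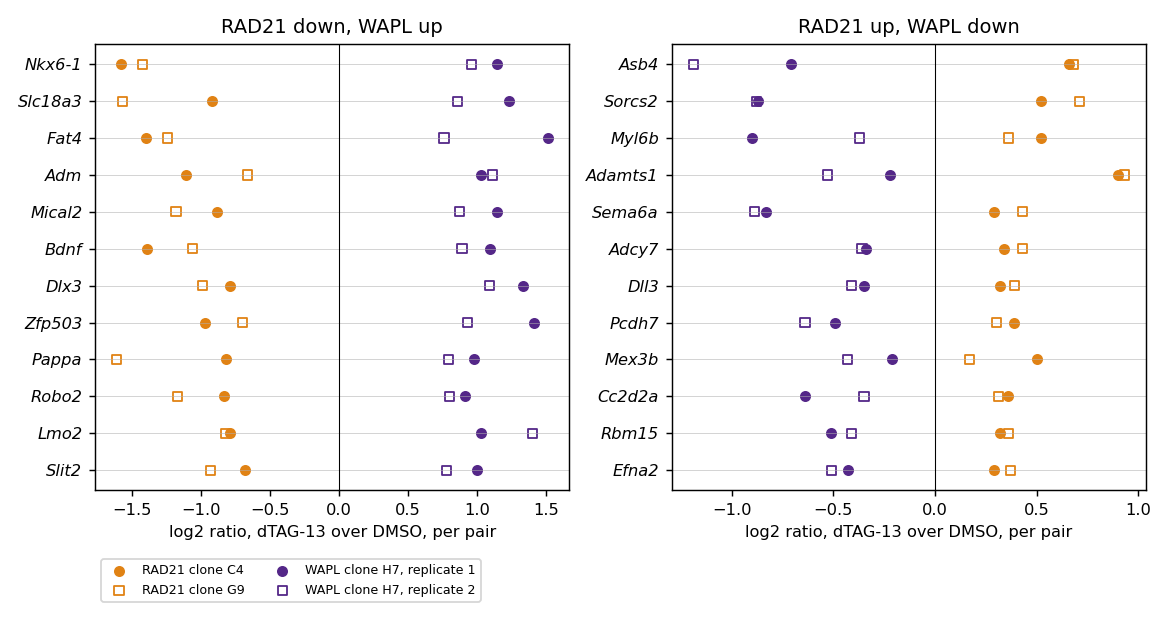
Log2 ratio of dTAG-13 over DMSO in each pair of libraries for the 12 leading genes of each opposite class, with RAD21 clones in orange and WAPL replicates in purple. For each of these genes both orange points lie on one side of 0 and both purple points on the other, as the ranking required. Most points of the right panel lie nearer to 0 than those of the left panel.

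Igfbp3, which binds insulin-like growth factors outside the cell, had 95.7 and 76.4 CPM with dTAG-13 in the RAD21 clones, against 315 and 334 CPM with DMSO. In the WAPL clone it had 611 and 507 CPM with dTAG-13, against 366 and 351 CPM with DMSO. Treated levels lay below all controls in the RAD21 clones and above all controls in the WAPL clone (-1.91 ± 0.08 and 0.63 ± 0.08, difference -2.55 ± 0.11, adjusted p = 6.49e-12). In nascent RNA at day 7 after RAD21 loss Igfbp3 fell too (-1.41, adjusted p = 1.52e-06). Its response to WAPL loss on days 4 to 7 was 0.37 and did not pass (adjusted p = 0.0639).

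Of the BMP, Nodal and TGF-beta families, whose signals pattern the early embryo, some members moved in opposite directions and others together. Of 25 measured genes of this list, 4 rose and 12 fell after RAD21 loss, while 12 rose and 4 fell after WAPL loss, with medians of -0.26 and 0.25 beside 0.00 and -0.01 over all genes. The difference was higher for 2 and lower for 13. By gene, 5 fell after RAD21 loss and rose after WAPL loss, 4 rose in both and 3 fell in both. Among ligands, Bmp4 had 40.5 and 31 CPM with dTAG-13 in the RAD21 clones, against 68.8 and 67 CPM with DMSO, and 77.8 and 81.2 CPM with dTAG-13 in the WAPL clone, against 45.3 and 59.1 CPM with DMSO. No treated value overlapped a control of its own set (-0.92 ± 0.08 and 0.60 ± 0.08, difference -1.52 ± 0.11, adjusted p = 9.19e-09). Bmp2 gave -1.30 and 0.26. Tgfb2, a TGF-beta ligand, had 13.6 and 13.1 CPM with dTAG-13 in the RAD21 clones, against 51.9 and 53.1 CPM with DMSO, and 75 and 129 CPM with dTAG-13 in the WAPL clone, against 55.2 and 117 CPM with DMSO. Its fall was alike in both RAD21 clones, whereas the WAPL replicates differed more from each other than by treatment (-1.96 ± 0.08 and 0.27 ± 0.06).

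Among secreted inhibitors, Nog, which binds BMPs, gave -0.59 and 0.37. Fst, which binds activins, had 14.4 and 9.92 CPM with dTAG-13 in the RAD21 clones against 41.9 and 30.1 CPM with DMSO (-1.56), and its WAPL response of 0.14 did not pass (adjusted p = 0.101). Id1, a BMP target, gave -0.26 and 0.61. Of the members called alike in both sets, Nodal (0.27 and 0.25), the intracellular inhibitor gene Smad7 (0.40 and 0.36) and the ligand gene Bmp7 (0.48 and 0.28) rose, while the inhibitor genes Lefty2 (-0.41 and -0.42) and Cer1 (-0.34 and -1.09) fell. Without either library of clone G9 the RAD21 fallers of the list numbered 7, without either library of WAPL replicate 1 its WAPL risers numbered 8, and DESeq2 found 7 RAD21 fallers, 6 WAPL risers and 8 genes lower in the difference.

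Retinoic acid, a vitamin A derivative that acts on nuclear receptors, is made by the Aldh1a enzymes. Aldh1a3 gave -1.23 and 1.57, but at 1.29 and 0.514 CPM in treated RAD21 clones its fall rests on few reads. Aldh1a2 gave -0.59 and 1.55, and Rdh10, which makes the substrate of these enzymes, gave -0.32 and 0.49. These are the 3 opposite genes among 14 measured in that list, of which 1 rose and 4 fell after RAD21 loss and 6 rose and 2 fell after WAPL loss. The RAD21 fallers numbered 2 without either library of clone G9 and 1 with DESeq2. Interferon-response genes gave 2 risen and 5 fallen genes after RAD21 loss and 10 risen and 0 fallen genes after WAPL loss, of 25 measured, with 0 fallen after WAPL loss at an unadjusted p under 0.05 and 0 by DESeq2. Ifit3, an antiviral gene, had 1.37 and 1.76 CPM with dTAG-13 in the RAD21 clones against 3.11 and 2.74 CPM with DMSO, and 3.17 and 1.21 CPM with dTAG-13 in the WAPL clone against 0.327 and 0.153 CPM with DMSO. It fell after RAD21 loss and rose after WAPL loss, but the WAPL controls lay near the level of 3 counts, so no size is given for the rise. The RAD21 fallers of the interferon list numbered 2 without either library of clone C4, where the median was 0.06 in place of -0.07, 3 without the DMSO library of clone G9 and 0 with DESeq2.

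The reverse class, higher after RAD21 loss and lower after WAPL loss, had smaller effects, with median responses of 0.23 and -0.25. It held more abundant genes, with a median of 98.5 CPM in RAD21 and 95.6 CPM in WAPL controls, against 31 and 31.2 CPM over all genes. Asb4, an imprinted gene for an ankyrin-repeat protein, had 128 and 187 CPM with dTAG-13 in the RAD21 clones against 81.1 and 116 CPM with DMSO. In the WAPL clone it had 3.93 and 4.44 CPM with dTAG-13 against 6.49 and 10.2 CPM with DMSO. It was lower in every WAPL library than in any RAD21 library, and within each set treated and control values did not overlap (0.67 ± 0.05 and -1.05 ± 0.13, difference 1.72 ± 0.14, adjusted p = 5.84e-08). Adamts1, a secreted metalloprotease, gave 0.92 and -0.41, and its nascent RNA rose at day 7 after RAD21 loss (0.56, adjusted p = 1.65e-05). Sema6a, a transmembrane semaphorin, gave 0.36 and -0.87, the sortilin-family receptor gene Sorcs2 0.61 and -0.89, and Dll3, a Notch ligand of the presomitic mesoderm, 0.35 and -0.38. Nascent Sorcs2 RNA rose too (0.80, adjusted p = 1.27e-06).

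Further leading genes were Myl6b, a myosin light chain (0.43 and -0.62), the adenylate cyclase gene Adcy7 (0.39 and -0.36) and the protocadherin gene Pcdh7 (0.34 and -0.59). Nascent Pcdh7 RNA fell at day 7 after RAD21 loss, against its rise at day 10 (-0.32, adjusted p = 0.00881). Mex3b, which encodes an RNA-binding protein, gave 0.34 and -0.35, the cilium gene Cc2d2a 0.34 and -0.46, the RNA-binding factor gene Rbm15 0.34 and -0.45, and the ephrin gene Efna2 0.33 and -0.48. Stag1, which encodes a cohesin subunit, also belonged here, at 263 and 242 CPM with dTAG-13 against 217 and 186 CPM with DMSO in the RAD21 clones, and 113 and 123 CPM with dTAG-13 against 129 and 159 CPM with DMSO in the WAPL clone. The treated and control values did not overlap in either set (0.33 ± 0.06 and -0.28 ± 0.06, difference 0.61 ± 0.08, adjusted p = 2.59e-05), and nascent Stag1 RNA rose at day 7 after RAD21 loss (0.43, adjusted p = 5.18e-06). Myc, the growth-promoting transcription factor, gave 0.17 and -0.62 at day 10, but its nascent RNA fell at day 7 after RAD21 loss (-0.40, adjusted p = 0.0115).

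The class held 7 of the 25 measured genes of the mitosis list, beside 0.787% of all genes tested. Of 25 measured genes of the mitosis list, 13 rose and 0 fell after RAD21 loss, 0 rose and 17 fell after WAPL loss, and the difference was higher for 21 and lower for 0, with medians of 0.17 and -0.19. At an unadjusted p under 0.05, 0 fell after RAD21 loss, 0 rose after WAPL loss and 0 were lower in the difference, and DESeq2 found 0 in each of these directions, with 7 RAD21 risers, 7 WAPL fallers and 11 genes higher in the difference. The effects were small. Plk1, the mitotic polo kinase, had 319 and 322 CPM with dTAG-13 in the RAD21 clones against 267 and 276 CPM with DMSO, and 234 and 209 CPM with dTAG-13 in the WAPL clone against 270 and 248 CPM with DMSO. The treated and control values did not overlap in either set (0.24 ± 0.06 and -0.23 ± 0.06, difference 0.47 ± 0.08, adjusted p = 0.000399). Bub1b, a spindle checkpoint kinase, gave 0.21 and -0.39, and Mki67, the proliferation antigen Ki-67, 0.38 and -0.21. Outside the list, the cytokinesis kinesin gene Kif23 gave 0.49 and -0.19.

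Some mitotic genes moved in one set. The kinesin gene Cenpe rose after RAD21 loss (0.44) and gave -0.02 after WAPL loss (adjusted p = 0.834), while the kinase gene Aurkb gave 0.00 after RAD21 loss (adjusted p = 0.991) and fell after WAPL loss (-0.27). The list's WAPL fallers numbered 3 without either library of WAPL replicate 1, where its median was -0.17, and 9 or 7 without the DMSO or the dTAG-13 library of replicate 2. In other libraries, nascent RNA at day 7 after RAD21 loss gave 0 risen and 0 fallen of 23 mitosis genes (5 higher at an unadjusted p under 0.05, median 0.07), and WAPL loss on days 4 to 7 gave 0 risen and 1 fallen of 25 (8 lower at an unadjusted p under 0.05, median -0.14). DNA replication genes, which act earlier in the cell cycle, went another way: of 27 measured, 10 fell and 0 rose after RAD21 loss and 20 fell and 0 rose after WAPL loss. At an unadjusted p under 0.05, 1 rose after RAD21 loss and 0 after WAPL loss, and DESeq2 found 0 of either. The RAD21 fallers numbered 4 without any single RAD21 library and 1 with DESeq2. Of the difference, 8 were higher and 0 lower, or 5 higher without either library of WAPL replicate 1 or the dTAG-13 library of replicate 2.

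Promoters of mitotic genes are shown because a short motif was found in 29 of the 89 promoters of the class, against 11.3% of all. Mitotic promoters are known for a CHR element, TTTGAA, which is bound by MuvB complexes such as DREAM, and for CCAAT boxes, which are bound by NF-Y. Sequences came from RefSeq (GRCm38.p6), run from 250 bases before to 50 bases after an annotated start, and were available for 10632 of the 14236 tested genes, the first entry of each being used. Shown are the 4 mitosis genes of the class that have a sequence and rank highest by the smaller of their absolute responses, and capitals mark TTTGAA and CCAAT on either strand. Plk1 lies at chr7:122159185-122159484 on the plus strand, Bub1b at chr2:118597961-118598260 on the plus strand, Mki67 at chr7:135716330-135716629 on the minus strand and Ccnb2, the gene for cyclin B2, at chr9:70421505-70421804 on the minus strand.
Plk1: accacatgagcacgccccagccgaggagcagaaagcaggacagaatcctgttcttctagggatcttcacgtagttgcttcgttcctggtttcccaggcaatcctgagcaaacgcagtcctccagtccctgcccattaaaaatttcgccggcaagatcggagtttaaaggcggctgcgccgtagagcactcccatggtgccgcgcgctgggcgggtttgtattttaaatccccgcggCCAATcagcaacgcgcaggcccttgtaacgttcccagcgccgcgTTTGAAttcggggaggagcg
Bub1b: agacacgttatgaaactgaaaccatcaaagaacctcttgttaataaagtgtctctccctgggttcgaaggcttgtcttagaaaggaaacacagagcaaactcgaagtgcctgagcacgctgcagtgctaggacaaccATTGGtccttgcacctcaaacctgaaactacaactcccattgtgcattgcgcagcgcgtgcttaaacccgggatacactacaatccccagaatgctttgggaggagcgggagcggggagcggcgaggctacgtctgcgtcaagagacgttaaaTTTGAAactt
Mki67: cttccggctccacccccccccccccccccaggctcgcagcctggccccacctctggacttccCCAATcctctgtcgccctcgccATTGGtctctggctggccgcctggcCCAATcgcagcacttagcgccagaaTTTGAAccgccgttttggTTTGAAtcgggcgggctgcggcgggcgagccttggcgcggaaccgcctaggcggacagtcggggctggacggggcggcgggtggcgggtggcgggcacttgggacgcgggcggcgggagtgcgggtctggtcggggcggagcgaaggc
Ccnb2: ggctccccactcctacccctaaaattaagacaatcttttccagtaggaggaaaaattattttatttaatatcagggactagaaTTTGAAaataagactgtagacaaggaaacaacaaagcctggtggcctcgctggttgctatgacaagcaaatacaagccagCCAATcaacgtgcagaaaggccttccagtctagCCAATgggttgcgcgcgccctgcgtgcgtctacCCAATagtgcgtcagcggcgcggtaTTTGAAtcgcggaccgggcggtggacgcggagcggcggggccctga

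In Plk1 the CHR element lay 30 bases after the start and the CCAAT box 14 bases before it. In Ccnb2, 3 CCAAT boxes lay 87, 54 and 21 bases before the start and a CHR element 4 bases after it. On either strand, TTTGAA was found in 29 of 89 promoters of the class that rose after RAD21 loss and fell after WAPL loss (32.6%), against 11.3% of the 10632 promoters. In the mitosis list itself it was in 14 of 19 promoters (73.7%). Leaving out that list, which lacks the mitotic genes named next, it was in 23 of 83 of the class (27.7%). Of these 23, Kif23, Kif2c, Kif20b, Kif22, Cenpa, Hjurp, Cdca8, Ect2, Racgap1, Aspm, Hmmr, Spag5, Ckap2l, Ncapd2 and Espl1 act at spindles and centromeres, on mitotic chromosomes, in cytokinesis or in chromatid separation. The remaining carriers were Acot7, Adcy7, E2f3, Gli2, Gtf3a, Klf6, Pcdh7 and Sox11, which have other known roles, among them a thioesterase, an adenylate cyclase and transcription factors. CCAAT was in 56.2% of the promoters of the class and in 38.9% of all, and both motifs were in 24.7% of the class and 4.83% of all. In the class lower after RAD21 loss and higher after WAPL loss, TTTGAA was in 11.7% of 120 promoters, in the class both up in 8.08% and in the class both down in 9.15%. Of all genes that rose after RAD21 loss 14.1% carried it, and of all that fell after WAPL loss 13.2%. A match describes letters and not binding.

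**Figure D3:**
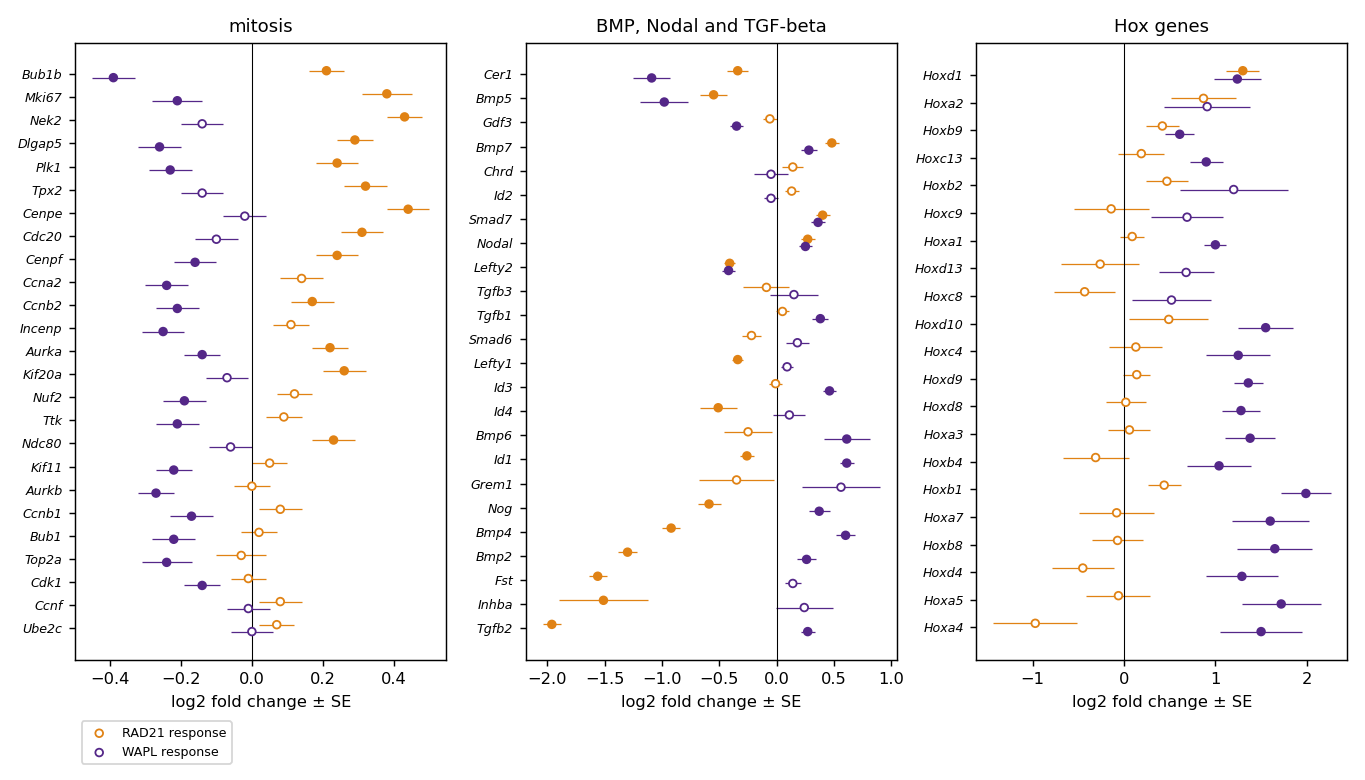
Log2 responses with standard errors (horizontal axis) for members of 3 lists, RAD21 in orange and WAPL in purple, with filled points for an adjusted p under 0.05. The filled mitosis points lie right of 0 for RAD21 and left of 0 for WAPL, the lower BMP, Nodal and TGF-beta members such as Tgfb2 and Bmp4 lie apart, and the purple Hox points lie right of 0 while most orange ones are open.

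Components of the cohesin machinery were followed as a group. Of 18 measured, 3 rose and 1 fell after RAD21 loss and 0 rose and 9 fell after WAPL loss, with medians of 0.00 and -0.20. No WAPL riser was found at an unadjusted p under 0.05 or by DESeq2 (0 and 0 genes). Espl1, the gene for separase, which cuts RAD21 at anaphase, gave 0.20 ± 0.05 and -0.25 ± 0.05 (difference 0.44 ± 0.07, adjusted p = 0.000293). Nipbl, the cohesin loader, rose after RAD21 loss (0.18, adjusted p = 0.037) and gave 0.05 after WAPL loss (adjusted p = 0.519). Ctcf, which stops loop extrusion, gave -0.02 after RAD21 loss (adjusted p = 0.852) and fell after WAPL loss (-0.27), and Stag2 passed in neither (-0.03 and -0.09). Without either library of clone G9 the RAD21 risers of this list numbered 1, and without either library of WAPL replicate 2 its WAPL fallers numbered 5. Of 31 measured Polycomb components, which repress developmental genes through histone marks, 1 rose and 5 fell after RAD21 loss and 1 rose and 12 fell after WAPL loss. Cbx2, which reads H3K27me3, gave 0.11 after RAD21 loss (adjusted p = 0.215) and fell after WAPL loss (-0.48, difference 0.58 ± 0.08, adjusted p = 6.8e-05), and Ezh2, the methyltransferase of that mark, passed in neither (0.10 and -0.11). The RAD21 fallers of the Polycomb list numbered 2 without any single RAD21 library, and its WAPL fallers 5 without the dTAG-13 library of replicate 2.

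Genes that moved together formed the larger classes. Of the genes up in both, Sprr1a, a cornified envelope protein of stratified epithelium, had 18.4 and 41.8 CPM with dTAG-13 in the RAD21 clones against 9.66 and 14.9 CPM with DMSO, and 26 and 20.2 CPM with dTAG-13 in the WAPL clone against 8.83 and 7.61 CPM with DMSO. No treated value overlapped a control of its own set (1.25 ± 0.11 and 1.48 ± 0.13). The cytokine gene Il24 gave 1.52 and 1.00, Timp3, an inhibitor of matrix metalloproteases, 0.82 and 1.03, and Dio3, an imprinted deiodinase gene, 1.00 and 0.85. Nfam1, an immune receptor gene, gave 1.02 and 1.01, and the histone gene Hist1h2bc 0.83 and 1.14. Prnd, the gene for the prion-like protein doppel, gave 0.96 and 1.57. The entry Prn had near-equal counts to Prnd (0.88 and 1.43) and may share reads with it, so it is not a separate measurement.

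Keratins and genes of stratified epithelium gave 9 risen and 2 fallen of 20 after RAD21 loss and 16 risen and 1 fallen after WAPL loss, of which 8 rose in both, with medians of 0.26 and 0.58. DESeq2 found 5 RAD21 risers. Krt18, a simple-epithelium keratin, gave 0.35 and 0.64, while Krt17 rose after RAD21 loss (1.48) and gave 0.20 after WAPL loss (adjusted p = 0.56, difference 1.28 ± 0.30, adjusted p = 0.00544). Targets of YAP, the transcriptional co-activator held back by Hippo signalling, gave 12 risen and 3 fallen of 19 after RAD21 loss and 11 risen and 0 fallen after WAPL loss (0 at an unadjusted p under 0.05 and 0 by DESeq2). Ankrd1 gave 1.30 and 0.67, Ctgf 0.34 and 0.32 and Axl 0.32 and 0.44. In this list 2 genes went opposite ways. They were F3, the gene for tissue factor (-1.08 and 0.43, difference -1.51 ± 0.11, adjusted p = 5.47e-09), and Tgfb2 (-1.96 and 0.27), which was also described with the TGF-beta family. The WAPL risers of the YAP list numbered 5 or 6 when the DMSO or the dTAG-13 library of replicate 1 was left out, and 6 with DESeq2.

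Of 29 measured markers of pluripotency, 17 fell and 1 rose after RAD21 loss, 23 fell and 1 rose after WAPL loss, 15 fell in both, and the medians were -0.33 and -0.37. Sox2, a core pluripotency factor, had 123 and 66.3 CPM with dTAG-13 in the RAD21 clones against 192 and 123 CPM with DMSO, and 181 and 172 CPM with dTAG-13 in the WAPL clone against 265 and 251 CPM with DMSO. The WAPL groups were apart, the RAD21 groups met because the clones differed in level, and both treated clones lay below their own controls (-0.75 ± 0.06 and -0.55 ± 0.06). Nanog gave -0.47 and -0.26, Pou5f1, the gene for OCT4, -0.26 and -0.46, Esrrb -0.50 and -0.60 and Prdm14 -1.65 and -0.54. In bulk RNA, fewer cells of a type and less RNA per cell cannot be told apart. The WAPL fallers of the list numbered 15 when the DMSO library of replicate 2 was left out, 12 when its dTAG-13 library was, and 15 with DESeq2.

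Of 11 measured genes of the primed epiblast, the state that follows naive pluripotency, 7 fell and 1 rose after RAD21 loss and 9 fell and 1 rose after WAPL loss, 7 fell in both, with medians of -0.37 and -0.74, and 5 passed the test of the difference, each higher in RAD21 minus WAPL (3 without the dTAG-13 library of WAPL replicate 2, 2 with DESeq2). Otx2, a homeobox factor of epiblast and forebrain, had 138 and 167 CPM with dTAG-13 in the RAD21 clones against 149 and 181 CPM with DMSO, and 76.8 and 61.5 CPM with dTAG-13 in the WAPL clone against 147 and 117 CPM with DMSO. The RAD21 groups overlapped and the WAPL groups did not (-0.11 ± 0.05 and -0.93 ± 0.05, difference 0.82 ± 0.07, adjusted p = 1.9e-07). The de novo methyltransferase gene Dnmt3b gave -0.38 and -0.83, and Fgf5 -0.37 and -0.74. The zinc finger gene Sall1 gave -0.36 and -0.96. The strongest shared falls by rank were Myb (-1.33 and -1.83), the calcitonin receptor gene Calcr (-1.85 and -1.28), the chemokine receptor gene Cxcr4 (-1.28 and -1.15) and Cbln1, a secreted synaptic organiser (-2.22 and -1.09). Next came the transporter gene Slc35d3 (-1.06 and -1.17), Tmem200a (-1.55 and -0.99), the potassium channel gene Kcnj3 (-0.99 and -0.95) and the X-linked signalling adaptor gene Irs4 (-1.12 and -0.94).

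**Figure D4:**
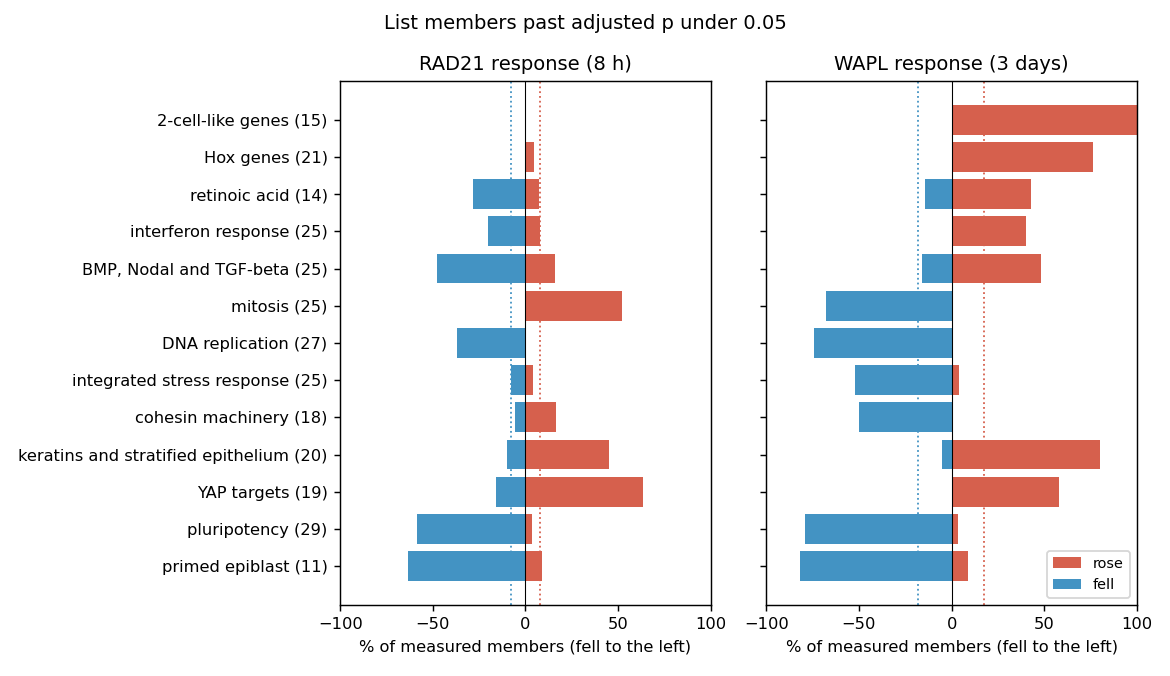
Share of measured members of 13 gene lists that rose (right of 0) or fell (left of 0), in percent, after RAD21 loss (left panel) and after WAPL loss (right panel), with dotted lines for all tested genes and the number measured in brackets. Of 25 mitosis members 13 rose in the left panel and 17 fell in the right one, and of 29 pluripotency members 17 fell in the left panel and 23 in the right one.

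A further group fell after RAD21 loss with less or no change after WAPL loss. Adamts15, a secreted metalloprotease gene on chromosome 9, had 1.15 and 0.808 CPM with dTAG-13 in the RAD21 clones against 16.6 and 14.3 CPM with DMSO, and 29.8 and 37.4 CPM with dTAG-13 in the WAPL clone against 34.3 and 38.6 CPM with DMSO. The RAD21 groups were far apart and the WAPL groups overlapped (-3.94 ± 0.16 and -0.11 ± 0.08, difference -3.83 ± 0.19, adjusted p = 1.85e-11). Adamts8, a related gene on the same chromosome, gave -2.51 and 0.09 (difference -2.60 ± 0.28, adjusted p = 2.54e-06), and both fell in nascent RNA at day 7 after RAD21 loss (Adamts15 -2.78, Adamts8 -2.11). Magel2, a MAGE-family gene subject to imprinting, had 6.21 and 6.17 CPM with dTAG-13 in the RAD21 clones against 68.8 and 59.9 CPM with DMSO, and 61.8 and 62.2 CPM with dTAG-13 in the WAPL clone against 106 and 88.4 CPM with DMSO. It fell in both sets without overlap, and more after RAD21 loss (-3.40 ± 0.09 and -0.63 ± 0.06, difference -2.76 ± 0.12, adjusted p = 3.92e-12). Cemip, a hyaluronan-degrading factor, gave -2.47 and 0.17, and the connexin gene Gjb2 -2.15 and 0.32. Foxc2, a forkhead factor of mesoderm, had 0.296 and 0.735 CPM with dTAG-13 in the RAD21 clones against 5.08 and 11.2 CPM with DMSO, and 1 and 0.72 CPM with dTAG-13 in the WAPL clone against 1.42 and 1.38 CPM with DMSO. The treated RAD21 values rest on few reads, and the WAPL response did not pass (-3.99 ± 0.26 and -0.75 ± 0.34, adjusted p = 0.0954 for the second).

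**Figure D5:**
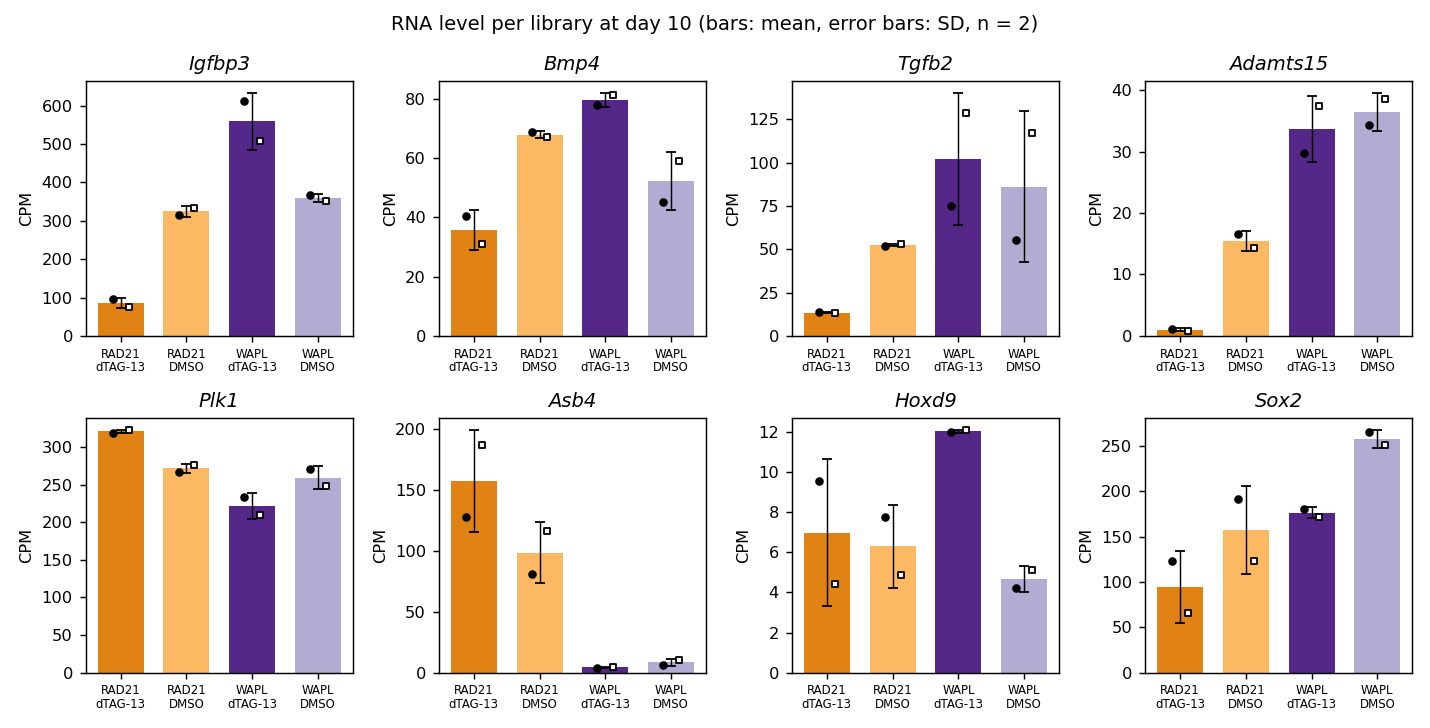
CPM per library (vertical axes, linear) of 8 genes in 4 groups, with bars for the mean, error bars for the SD (n = 2), circles for clone C4 or replicate 1 and squares for clone G9 or replicate 2. Igfbp3, Bmp4 and Tgfb2 were lower with dTAG-13 in both RAD21 clones and higher with dTAG-13 in both WAPL pairs, Plk1 and Asb4 went the other way, Hoxd9 was higher with dTAG-13 in the WAPL clone, and Sox2 was lower in every pair.

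The Hox genes and 2-cell-like genes changed after WAPL loss with few or no calls after RAD21 loss. Of 21 measured Hox genes, which specify position along the body axis, 1 rose and 0 fell after RAD21 loss (median 0.06), while 16 rose and 0 fell after WAPL loss (median 1.25), and 10 were lower in the difference. At an unadjusted p under 0.05, 4 rose and 0 fell after RAD21 loss and 0 fell after WAPL loss, and DESeq2 found 1 risen and 0 fallen after RAD21 loss, 9 risen and 0 fallen after WAPL loss and 2 lower in the difference. Hoxd9 had 9.58 and 4.41 CPM with dTAG-13 in the RAD21 clones against 7.78 and 4.85 CPM with DMSO, and 12 and 12.1 CPM with dTAG-13 in the WAPL clone against 4.2 and 5.11 CPM with DMSO. Its RAD21 groups overlapped and its WAPL groups did not (0.14 ± 0.15 and 1.36 ± 0.16, difference -1.22 ± 0.22, adjusted p = 0.000541). Hoxd1 rose in both sets (1.30 and 1.24), and it is the RAD21 riser of the list. Without either library of WAPL replicate 1, 6 Hox genes were lower in the difference.

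Genes that mark 2-cell-like cells, a rare state in stem cell cultures, gave 0 risen and 0 fallen of 15 after RAD21 loss and 15 risen and 0 fallen after WAPL loss, and 12 were lower in the difference. After RAD21 loss, 0 rose and 2 fell at an unadjusted p under 0.05, and DESeq2 found 0 in either direction, 10 WAPL risers and 5 lower in the difference. Their summed level was 4.92 and 1.91 CPM with dTAG-13 in the RAD21 clones against 5.65 and 3.96 CPM with DMSO, and 67.8 and 35.4 CPM with dTAG-13 in the WAPL clone against 9.26 and 7.76 CPM with DMSO. Several members belong to multi-copy families, so the counting could split or share their reads. The levels in the RAD21 clones were low and both treated clones lay below their own controls.

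Transcription factors of early lineages split by gene. Hand1, a factor of trophoblast and heart, had 14.8 and 28.1 CPM with dTAG-13 in the RAD21 clones against 26.9 and 54.5 CPM with DMSO, and 43.8 and 45.3 CPM with dTAG-13 in the WAPL clone against 29.3 and 40.9 CPM with DMSO. Both RAD21 clones were lower and both WAPL replicates higher than their own controls (-0.91 ± 0.09 and 0.34 ± 0.08, difference -1.25 ± 0.12, adjusted p = 5.55e-07). Cdx2, a factor of trophoblast and hindgut, gave -0.34 and 0.65, whereas Eomes, a T-box factor of trophoblast and mesendoderm, fell in both (-0.20 and -0.89), as did the endoderm factor gene Foxa2 (-0.22 and -0.68). Of 12 measured genes of a list of forkhead cluster genes, 0 rose and 8 fell after RAD21 loss (median -0.58). In the same list, 3 rose and 4 fell after WAPL loss (median -0.02). Foxl2, a forkhead gene outside this list, rose in both sets. At an unadjusted p under 0.05, 1 rose after RAD21 loss, and DESeq2 found 0 risen and 4 fallen. Foxf1, a factor of lateral mesoderm, fell after RAD21 loss (-1.46) and gave 0.56 after WAPL loss (adjusted p = 0.0849, difference -2.02 ± 0.33, adjusted p = 0.000263). Of 25 measured p53 targets, 7 rose and 2 fell after RAD21 loss and 14 rose and 0 fell after WAPL loss (1 lower at an unadjusted p under 0.05 and 0 by DESeq2), 5 rose in both and 2 went opposite ways. The RAD21 risers numbered 0 without either library of clone G9 and 1 with DESeq2, and the WAPL risers 8 without either library of replicate 1 and 9 with DESeq2. The opposite members were Plk2, a polo-like kinase gene (-0.25 and 0.25), and Ddit4, an inhibitor of mTORC1 signalling (-0.21 and 0.25), and nascent Plk2 RNA rose at day 7 after RAD21 loss (0.34, adjusted p = 0.00142). Mdm2, which encodes the ligase for p53, rose in both (0.31 and 0.30).

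Other genes fell after WAPL loss and were not called after RAD21 loss. Pla2g1b, a secreted phospholipase, gave -0.09 and -2.18 (difference 2.09 ± 0.19, adjusted p = 2.13e-07). Hand2, a factor of heart and limb, gave -0.08 and -2.10, Mesp1, a factor of early mesoderm, -0.08 and -1.45, the non-coding gene Miat -0.19 and -1.71, and Pdgfra, a growth factor receptor of mesoderm and primitive endoderm, 0.14 and -1.23. Gli1, a target and effector of Hedgehog signalling, had 25.6 and 22.8 CPM with dTAG-13 in the RAD21 clones against 22.6 and 22.1 CPM with DMSO, and 2.76 and 2.54 CPM with dTAG-13 in the WAPL clone against 8.45 and 7.46 CPM with DMSO. Its treated WAPL values lay well under their controls, and its treated RAD21 values lay slightly above theirs without passing the test (0.12 ± 0.09 and -1.58 ± 0.16, difference 1.69 ± 0.19, adjusted p = 2.55e-06). Genes of the integrated stress response, many of which import or make amino acids, gave 1 risen and 2 fallen of 25 after RAD21 loss and 1 risen and 13 fallen after WAPL loss. The WAPL fallers numbered 8 when the DMSO library of replicate 2 was left out, 7 when its dTAG-13 library was, and 7 with DESeq2. Mthfd2, a mitochondrial folate enzyme, gave -0.11 and -0.62, and Psat1, a serine synthesis enzyme, -0.06 and -0.56.

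Clustered protocadherins were followed in a list of alpha and beta genes, of which 15 entries were measured. Alpha protocadherins share their last exons, and their entries had near-identical counts, so they count as 1 measurement. Pcdha12 had 2.92 and 2.42 CPM with dTAG-13 in the RAD21 clones against 4.3 and 4.56 CPM with DMSO, and 3.93 and 4.02 CPM with dTAG-13 in the WAPL clone against 3.38 and 2.91 CPM with DMSO. The groups did not overlap in either set, but the WAPL response did not pass (-0.70 ± 0.20 and 0.36 ± 0.21, adjusted p = 0.202 for the second), and the difference was -1.06 ± 0.29 (adjusted p = 0.0138). All 15 measured entries were lower in the difference, of which 0 passed without either library of WAPL replicate 2 or with DESeq2, and 1 without either library of clone G9. Imprinted genes, expressed from 1 parental copy, went several ways. Of 38 measured, 9 rose and 11 fell after RAD21 loss and 13 rose and 9 fell after WAPL loss. Plagl1 (-0.75 and 0.93), Grb10 (-0.63 and 0.60) and H19 (-0.45 and 0.33) fell after RAD21 loss and rose after WAPL loss, the reverse of Asb4, but nascent Plagl1 RNA rose at day 7 after RAD21 loss (0.30, adjusted p = 0.0428). Without either library of clone G9, 5 imprinted genes rose and 6 fell after RAD21 loss, and when the DMSO or the dTAG-13 library of WAPL replicate 2 was left out, 4 or 3 fell after WAPL loss.

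Xist, the RNA that coats the inactive X chromosome, had 451 and 350 CPM with dTAG-13 in the RAD21 clones against 581 and 331 CPM with DMSO, and 366 and 1011 CPM with dTAG-13 in the WAPL clone against 451 and 1119 CPM with DMSO. The groups overlapped in both sets, with larger gaps between replicates than between treatments. Xist did not pass after RAD21 loss (-0.14 ± 0.09, adjusted p = 0.296) and fell after WAPL loss close to the threshold (-0.22 ± 0.09, adjusted p = 0.0481), and the difference did not pass (adjusted p = 0.691). Nascent Xist RNA rose at day 7 after RAD21 loss (0.33, adjusted p = 0.00269). Of 525 X-linked genes tested, 21 rose and 69 fell after RAD21 loss and 91 rose and 101 fell after WAPL loss. Over all tested genes, 8% rose and 7.66% fell after RAD21 loss, and 17.6% rose and 17.9% fell after WAPL loss. The X-linked medians were -0.06 and -0.01, beside 0.00 and -0.01 over all genes.

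Libraries that took no part in forming the classes were used to describe them. In nascent RNA at day 7 after RAD21 loss, 10.6% of 16496 genes passed, 5.9% higher and 4.66% lower. Of the 156 genes of the class RAD21 down with WAPL up tested there, 17.3% were lower and 5.13% higher, against 5.6% and 5.95% of the genes tested at day 10. Of the class RAD21 up with WAPL down, 12.4% were higher and 8.57% lower. The shared classes lay further from those shares: 32.5% of both-up genes were higher and 2.64% lower, and 41.1% of both-down genes were lower and 0.765% higher. In WAPL loss on days 4 to 7, in clones H7 and H2, 15.2% of 14544 genes passed, 9.46% higher and 5.73% lower. There 42.5% of the class RAD21 down with WAPL up were higher and 0% lower, against 9.35% and 5.91% of the genes tested at day 10, while 27.9% of the class RAD21 up with WAPL down were lower and 0.901% higher. Of both-up genes 57.9% were higher, and of both-down genes 38.4% were lower. DESeq2 on all 4 PRO-seq libraries found 504 nascent calls. Fits without 1 PRO-seq library left 1 library in a group and also had no clone term. They therefore cannot show how far the nascent calls rest on a single library. On days 4 to 7, 341 or 342 genes passed when a library of clone H2 was left out (DMSO or dTAG-13), 967 or 977 without the DMSO library of replicate 1 or 2, and 4433 without the dTAG-13 library of replicate 1.

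Cell type markers moved beside some of these groups, and their part in the results was not tested. Of 20 measured fibroblast and feeder markers, 6 rose and 2 fell after RAD21 loss and 13 rose and 1 fell after WAPL loss, or 8 rose without either library of WAPL replicate 1. Their summed level was 4558 and 4362 CPM with dTAG-13 in the RAD21 clones against 4397 and 4040 CPM with DMSO, and 4969 and 5649 CPM with dTAG-13 in the WAPL clone against 3300 and 4944 CPM with DMSO. Of the defining markers, Dcn had 4.18 and 5.08 CPM with dTAG-13 in the WAPL clone against 3.05 and 3.47 CPM with DMSO, and Col3a1 7.35 and 6.6 CPM against 3.16 and 4.55 CPM. By gene, 6 fibroblast and feeder markers rose in both sets, and 2 fell after RAD21 loss and rose after WAPL loss. The 2 were Col1a2 (-0.67 and 0.36) and Postn (-1.13 and 1.30). At 1.41 and 1.47 CPM in treated RAD21 clones, the fall of Postn rests on few reads. Of 13 trophoblast markers, 4 rose and 4 fell after RAD21 loss and 7 rose and 3 fell after WAPL loss, or 2 rose and 2 fell after RAD21 loss without either library of clone G9, and 1 fell after WAPL loss without either library of replicate 2. Their summed level was 2076 and 3040 CPM with dTAG-13 in the RAD21 clones against 1933 and 2468 CPM with DMSO, and 3150 and 2720 CPM with dTAG-13 in the WAPL clone against 2024 and 2258 CPM with DMSO. The highest member was Krt18, at 848 and 1300 CPM with dTAG-13 in the RAD21 clones and 1525 and 1289 CPM with dTAG-13 in the WAPL clone. Of 49 measured ribosomal protein genes, 4 rose and 3 fell after RAD21 loss (median 0.10), and 0 rose and 10 fell after WAPL loss (median -0.12). At an unadjusted p under 0.05, 1 rose after WAPL loss. Of the difference, 11 were higher and 1 lower. Their summed level turned with the RAD21 clone: 9211 CPM with dTAG-13 against 9763 CPM with DMSO in C4, and 12786 CPM against 10373 CPM in G9.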

How the data were processed

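RNA-seq of polyA RNA was analysed from raw counts, which the authors deposited in 1 table for the RAD21 clones and 1 for the WAPL clone at day 10. PRO-seq at day 7 (RAD21 clones, 4 libraries) was deposited by the authors in the form of expected counts, here rounded to whole numbers, and WAPL loss on days 4 to 7 (6 libraries, clones H7 and H2) as counts deposited by the authors. The submitters' processing notes name TopHat2, Novoalign, Bowtie2, HOMER, DESeq, DESeq2, Juicer, bedtools, cutadapt and deepTools and the builds mm9, hg19 and dm6 for the series as a whole. Which tool and build made each table is not given in the sources used here, nor is the filter that left 488 genes in the RAD21 table alone and 122 in the WAPL table alone.

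Both day 10 tables were joined by the gene label of the tables and fitted together with edgeR 4.0.16 (R 4.3.3): TMM scaling (factors 0.96 to 1.04), a minimum count of 10 in filterByExpr, a term for each of the 4 pairs, 1 treatment effect per degron and the quasi-likelihood test, with 2 residual degrees of freedom. The difference of the effects was tested in the same fit. Levels are CPM. Same-pair deviations from the group means correlated at r = 0.80 over 12750 genes between the RAD21 treatments, paired by clone, and at r = 0.89 over 12442 genes for the WAPL replicate numbers. No pair of replicates agreed within sampling noise (chi-square per gene 21.9 to 54.1). Nothing says that the WAPL replicates came from separate cultures, so their p-values may measure technical spread. PRO-seq and days 4 to 7 were each fitted with the same test and a clone term. Unlike day 10, the fit of days 4 to 7 had no term for replicate number. It called 2209 genes, against 3993 with such a term. PRO-seq was matched by symbol for 13551 genes. On data simulated from these libraries, 200 of 14236 genes were changed 2-fold or 4-fold, all above a minimum mean count. The 2-fold changes were recovered in 88% of cases for RAD21, 90% for WAPL and 80% for the difference. False calls made up 7.92%, 7.92% and 8.76% of all calls, above the nominal share. Smaller changes and genes of lower count were not simulated as changed, whereas the median absolute log2 response of called genes was 0.34 in each set.

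The members and the gene lists were chosen with earlier results of these data known, so lists are described by counts and medians without a test. Genes were named by rank. Up to 12 per opposite class and 8 per shared class were taken by the smaller absolute response, with the same sign in both pairs of each degron. Up to 8 per direction were taken by the size of the difference, with no overlap between the pair values of the 2 degrons. Both ranks needed an average log2 CPM of at least 2. Up to 3 per list were taken by the p of the difference, beside a short set of individual genes. Predicted genes were left out of the ranks, and other genes named were chosen after their values were seen. Alternatives were DESeq2 1.42.0, limma 3.58.1 (voom), RLE scaling, library totals, other filters, fits without the pairs, separate fits and leaving out each library. Promoter sequences came from RefSeq, and no genome was used here. Values of a few genes are counted in the totals but not reported here by name.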

Additional observations from a re-analysis of the deposited data

Results flagged for a closer look

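The responses to RAD21 loss and to WAPL loss differed, by the test of the difference itself (adjusted p under 0.05, edgeR), for 1380 genes that were higher and 1463 that were lower in RAD21 minus WAPL. Among the genes lower after RAD21 loss and higher after WAPL loss, the log2 difference was -2.60 for Nkx6-1, -2.36 for Fat4, -2.28 for Slc18a3, -2.27 for Bdnf and -2.10 for Dlx3. It was -2.07 for Adm, -2.04 for Zfp503, -2.04 for Lmo2, -1.98 for Mical2, -1.96 for Pappa, -1.84 for Robo2, -1.66 for Slit2 and -2.55 for Igfbp3. Both clones and both replicates of each of these genes moved in the direction of their set, which the ranking of all but Igfbp3 required.

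Among the genes higher after RAD21 loss and lower after WAPL loss, the log2 difference was 1.72 for Asb4, 1.50 for Sorcs2, 1.33 for Adamts1, 1.22 for Sema6a, 1.05 for Myl6b and 0.93 for Pcdh7. It was 0.81 for Efna2, 0.80 for Cc2d2a, 0.79 for Rbm15, 0.74 for Adcy7, 0.74 for Dll3 and 0.69 for Mex3b.

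Large differences also came from genes that moved in 1 set or unequally in both. The log2 difference was -3.83 for Adamts15, -2.76 for Magel2, -2.64 for Cemip, -2.60 for Adamts8 and -2.46 for Gjb2, each lower in the RAD21 response. It was 2.09 for Pla2g1b, 2.02 for Hand2, 1.69 for Gli1, 1.52 for Miat, 1.38 for Mesp1 and 1.37 for Pdgfra, each higher in the RAD21 response. The degraded protein, the treatment of 8 h or 3 days and the clone cannot be told apart in these values.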

How the results depend on the processing

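The calls rest on the pairs. With no replicate block for WAPL, 5 genes passed in the RAD21 response and 0 in the WAPL response and in the difference, and the 4 classes held 0 genes each. With neither pairing nor clone term, 6, 0 and 4 passed and the classes again held 0. At an unadjusted p under 0.05 these fits gave 771, 1711 and 839 genes, and 564, 1369 and 652, against 3973, 6340 and 4720 with the pairs. DESeq2 on the pairs called 663, 2048 and 612 genes and put 37 in the class RAD21 down with WAPL up, 8 in RAD21 up with WAPL down, 136 in both up and 104 in both down. With library totals the class RAD21 up with WAPL down held 51.

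Leaving out 1 library at a time gave 1236 to 2630 calls for RAD21, 2898 to 5551 for WAPL and 1883 to 2354 for the difference. The classes ranged over 112 to 145 (RAD21 down, WAPL up), 48 to 88 (RAD21 up, WAPL down), 341 to 517 (both up) and 246 to 372 (both down). Nascent calls fell to 504 with DESeq2. Fits without 1 PRO-seq library had no clone term and 1 library in a group, so no count is given for them. The response on days 4 to 7 gave 3993 with a replicate block and 341 to 4433 without 1 library. RLE scaling, both other filters, limma-voom and separate fits kept the RAD21, WAPL and difference counts, where they gave one, within 1.5 times of those reported. For the genes named by the ranks of the classes and of the difference, 2244 of the values recomputed kept direction and side of the threshold. Of the rest, 343 missed the threshold, 13 newly passed it and 0 changed sign past it. Of the 343, 132 came from the fit with no replicate block and 128 from the fit with neither pairing nor clone term. Genes named only from lists were not among these values. The cause of these changes was not tested. Each day 10 fit without 1 library kept 1 whole pair in that set and 1 residual degree of freedom, from the pairs of the other degron. Its counts therefore do not measure how well calls repeat within that set. With 2 pairs per set, small responses are the least certain, and low genes are limited by depth, since 3 counts are up to 0.248 CPM.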
